A study of Mus musculus with 11 samples.

Results

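Regulatory T cells (Treg) and naive CD4 T cells of the mouse were compared by ATAC-seq, an assay in which a transposase cuts and tags open chromatin so that reads pile up over accessible DNA. The comparison took 5 of the 11 libraries of the series, 3 of Treg and 2 of naive cells, which were the columns named for these cells in the deposited table, and all 38509 consensus peaks. A filter on low values removed 16 peaks and left 38493 for testing. The same fit held 3 libraries of effector cells (Teff) and 3 of anergic cells, which gave the spread and the levels set beside the Treg values. All libraries came from the mixed spleen and lymph node of untreated wild-type C57BL/6 mice that carry Foxp3-GFP and a polyclonal T cell repertoire, and all cells were sorted fresh. The Treg gate was FOXP3+ CD25+. Teff cells were FOXP3- and CD44 high with low FR4 and CD73, anergic cells were FOXP3-, NRP1+ and CD44 high with high FR4 and CD73, and naive cells were CD44 low. The age and sex of the mice, and whether each library came from its own mouse or from a pool, are not given in the sources used here, so a p-value here covers only how much these libraries vary. The Treg gate held no limit on CD44, so the Treg libraries can hold resting and activated cells. A bulk library cannot tell a peak open in fewer cells from a peak less open in each cell.

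Treg cells restrain the responses of other immune cells. Their lineage factor FOXP3 works with the IL-2 receptor, whose alpha chain is CD25, and with the downstream factor STAT5. They act through CTLA-4, through TGF-beta that GARP and the integrin alpha V beta 8 hold and release, and through IL-10. Naive cells keep a resting programme under TCF1, LEF1, BACH2 and SATB1 and carry receptors for recirculation through lymph nodes. In chromatin, activated and regulatory T cells are known for open elements with AP-1, NFAT and NF-kB motifs, and resting T cells for elements with TCF-LEF and RUNX motifs.

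The sequences below are the central 200 bases of the peaks with the largest change at 7 loci on which the results turn, among peaks of at most 1000 bases. The first 5 were higher and the last 2 lower in Treg cells. They are GRCm38 (mm10) bases of the plus strand, 5′ to 3′. Capitals mark matches, on either strand, to the letters of AP-1 (TGANTCA), NFAT (TGGAAA), NF-kB (GGGA, 1 free base, then TTTCC), RUNX (TGTGGT), TCF-LEF (CTTTGAT), ETS (CCGGAAG), STAT (TTCNNGGAA) and forkhead (TGTTTAC) motifs, where N is any base and neighbouring matches can overlap or run together. Positions are chrX:7583956-7584155 for Foxp3, chr7:98491875-98492074 for Lrrc32 and chr2:11651585-11651784 for Il2ra. They are chr1:60887089-60887288 for Ctla4, chr1:69555694-69555893 for Ikzf2, chr3:131167780-131167979 for Lef1 and chr17:51789212-51789411 for Satb1.
Foxp3: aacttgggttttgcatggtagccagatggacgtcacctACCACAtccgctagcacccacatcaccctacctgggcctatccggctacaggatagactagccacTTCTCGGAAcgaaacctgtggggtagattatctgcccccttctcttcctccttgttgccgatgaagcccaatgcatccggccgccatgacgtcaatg
Lrrc32: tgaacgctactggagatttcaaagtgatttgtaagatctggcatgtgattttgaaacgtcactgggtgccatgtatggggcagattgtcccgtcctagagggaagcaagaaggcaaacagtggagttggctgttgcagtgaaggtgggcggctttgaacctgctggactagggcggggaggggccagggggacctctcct
Il2ra: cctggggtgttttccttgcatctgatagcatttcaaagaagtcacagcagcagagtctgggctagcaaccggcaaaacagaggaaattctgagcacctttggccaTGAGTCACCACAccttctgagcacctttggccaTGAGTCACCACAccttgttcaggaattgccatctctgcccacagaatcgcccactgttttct
Ctla4: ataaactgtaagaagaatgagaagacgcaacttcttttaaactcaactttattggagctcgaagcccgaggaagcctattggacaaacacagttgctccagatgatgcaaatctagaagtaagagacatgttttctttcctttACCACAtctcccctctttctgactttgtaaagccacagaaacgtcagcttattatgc
Ikzf2: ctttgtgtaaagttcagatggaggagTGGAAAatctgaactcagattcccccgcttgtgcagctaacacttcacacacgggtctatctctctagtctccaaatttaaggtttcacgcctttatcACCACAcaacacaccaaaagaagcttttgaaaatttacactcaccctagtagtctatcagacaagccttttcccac
Lef1: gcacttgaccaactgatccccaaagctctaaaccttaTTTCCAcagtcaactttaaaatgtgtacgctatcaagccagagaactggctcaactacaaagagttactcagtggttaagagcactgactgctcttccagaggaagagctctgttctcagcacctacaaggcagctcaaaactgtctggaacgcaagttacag
Satb1: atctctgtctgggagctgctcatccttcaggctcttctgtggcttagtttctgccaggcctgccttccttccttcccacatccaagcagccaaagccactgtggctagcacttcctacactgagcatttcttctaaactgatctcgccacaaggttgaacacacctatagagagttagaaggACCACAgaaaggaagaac
The Foxp3 window held 1 RUNX and 1 STAT match and 9 CpG dinucleotides, and the Lrrc32 window held no match. The Il2ra window held 2 AP-1 matches, each running into a RUNX match, as part of a repeated stretch of bases. The Ctla4 and Satb1 windows held 1 RUNX match each, the Ikzf2 window 1 NFAT and 1 RUNX match, and the Lef1 window 1 NFAT match. A match is a description of letters, and no binding was measured.

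Depth and the signal at weak peaks differed between the groups. Reads in peaks came to 29.7, 14.7 and 27.4 M in the Treg libraries, against 45.7 and 48.1 M in the naive libraries. Values are given as deposited signal, which is reads per peak times 1 factor per library. The 5th percentile of signal over all tested peaks was 40.5, 49 and 38 in the Treg libraries, against 13 and 13.2 in the naive libraries, and 32.2 to 43.3 in the Teff and anergic libraries. Weakly open peaks therefore stood higher in the Treg libraries as a whole, and the part of this in the fold changes was not tested beyond the scalings given here. Promoter peaks held 71.8% to 73.9% of the signal in Treg libraries, against 74.6% and 75.9% in naive libraries.

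Of the peaks tested, 8568 (22.3%) were higher and 8867 (23%) were lower in Treg than in naive cells at an adjusted p below 0.05. Among these, 5912 (15.4% of the peaks tested) were higher and 2968 (7.71%) were lower by at least 2-fold. The median log2 fold change was 1.48 over the higher peaks and -0.73 over the lower peaks. Over all peaks it was -0.04. The consensus peaks were those of a series with 2 naive libraries and 3 each of Treg, Teff and anergic cells. How far this makeup of the peak set bears on the number and size of higher and lower calls was not tested. The balance depended on the scaling. With libraries scaled to their reads in peaks, 10709 peaks were higher and 5721 lower, so that higher peaks made up 65.2% of calls in place of 49.1%, with the median over all peaks at 0.12. After quantile normalization, 7472 were higher and 7305 lower, and by at least 2-fold 3975 were higher and 3594 lower. Without naive replicate 1, 6748 peaks were higher and 5242 lower.

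**Figure D1:**
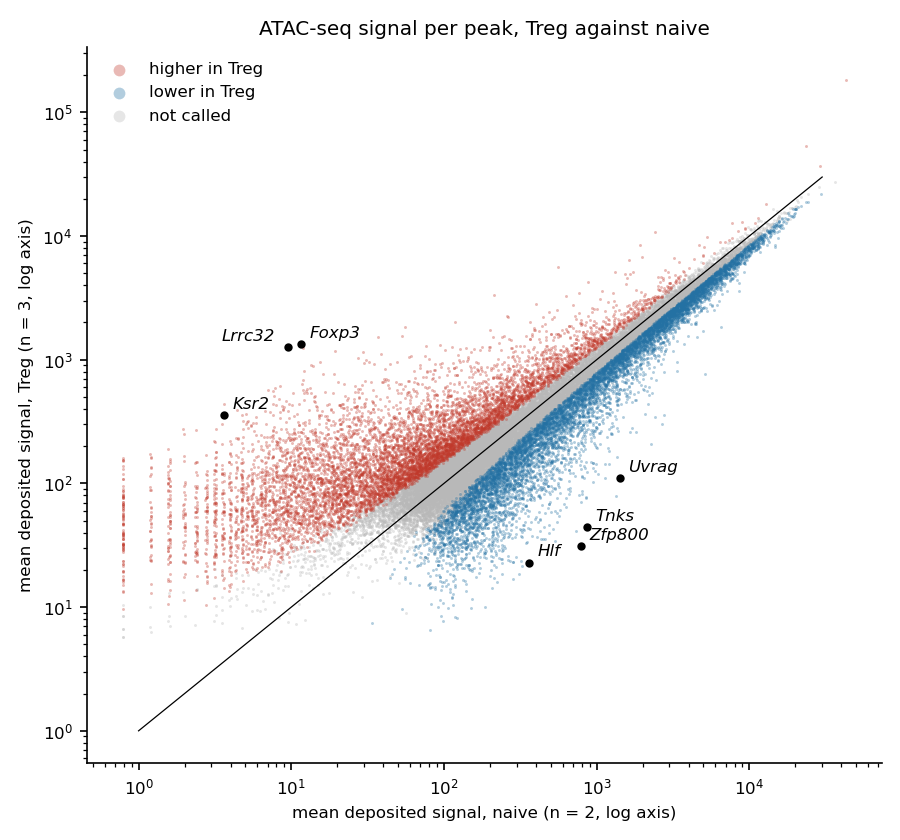
Mean deposited signal of each tested peak in Treg (y, n = 3) against naive (x, n = 2), both on log axes, coloured by call, with the line of equal signal. The 8568 higher peaks spread far above the line, with Foxp3, Lrrc32 and Ksr2 marked, and the 8867 lower peaks lie closer below it, with Zfp800, Tnks, Hlf and Uvrag marked.

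The sort markers were examined first, since they check the labels and cannot be read as findings. Foxp3 had 1 peak, in an intron 3.57 kb downstream of the start site (chrX:7583720-7584393). Its signal was 1597, 1118 and 1278 in the Treg libraries, against 15.4 and 7.74 in the naive libraries (log2 fold change 6.78 ± 0.45, adjusted p = 9.83e-11). The groups did not overlap, and the Teff and anergic means were 31.1 and 131. The introns of Foxp3 are known to hold enhancers that keep the gene on in dividing Treg cells, and whether this peak is one of them was not tested. With quantile normalization the log2 fold change was 5.54. Of the 13 peaks of Il2ra, the CD25 gene, 8 were higher and 1 was lower. The most certain change was at an intronic peak 8.89 kb downstream of the start site (chr2:11651485-11651885), with a signal of 518, 436 and 558 in the Treg libraries, against 102 and 108 in the naive libraries (log2 fold change 2.25 ± 0.19, adjusted p = 3.76e-09). Every Treg library stood above both naive libraries there.

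Cd44, Nt5e, Izumo1r and Nrp1 were not named in the Treg gate, though low CD44 defined the naive gate. Cd44, an adhesion receptor of antigen-experienced cells, was higher at 9 and lower at 3 of 16 peaks. At its most certain peak, 55.4 kb upstream (chr2:102956558-102957478), the signal was 979.8, 798 and 1100.3 in the Treg libraries, against 38.2 and 60.4 in the naive libraries (log2 fold change 4.28 ± 0.18, adjusted p = 1.15e-13), and the anergic mean was 2093. Nt5e, which encodes the ectoenzyme CD73, was higher at 3 of 5 peaks, with 2.93 ± 0.25 in an intron (adjusted p = 3.27e-09). Izumo1r, the gene of the folate receptor FR4, was higher at 4 and lower at 1 of 7 peaks, with 2.51 ± 0.20 at 1.13 kb upstream (adjusted p = 2.09e-09). Nrp1, a semaphorin receptor found on thymus-derived Treg cells, was higher at all 3 of its peaks, by 0.96 to 1.18. Cd4, the coreceptor that defines CD4 T cells and so all groups, was lower at 2 of 4 peaks. At the intronic Cd4 peak 2.41 kb downstream the signal was 1026, 789.7 and 731 in the Treg libraries, against 1949 and 1593 in the naive libraries (log2 fold change -1.07 ± 0.15, adjusted p = 6.88e-06), without overlap. Over the list of sort markers 28 of 49 peaks were higher and 7 lower, with a median of 0.93.

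The largest rise among the peaks of named genes that met the naming rule was at Lrrc32, which encodes GARP, the surface anchor of latent TGF-beta. At an intronic peak 1.98 kb downstream of its start site (chr7:98491693-98492257) the signal was 1305, 1089.8 and 1404 in the Treg libraries, against 12.2 and 6.97 in the naive libraries (log2 fold change 6.94 ± 0.40, adjusted p = 1.07e-11). After Lrrc32 and Foxp3 came peaks nearest to Supt3 (6.62, in an intron of Runx2), Nampt (6.60), Ksr2 (6.59), Osbpl3 (6.58), Mir7665 (6.38), Mir6380 (6.36), Ppp4r2 (6.24) and Nup35 (6.24). All 8 of these were distal and their adjusted p ran up to 2.00e-08. At the Osbpl3 peak (an oxysterol-binding protein gene) the signal was 1066, 1184 and 1456 in the Treg libraries, against 10.6 and 13.2 in the naive libraries, with no overlap and the smallest p of the 10 (adjusted p = 3.48e-16). The Teff mean there was 166 and the anergic mean 1335. At the Nampt, Ksr2 and Mir7665 peaks 1 naive library held a single read. The Nampt change was 8.17 without naive replicate 1 and 5.03 without naive replicate 2, the Ksr2 change 7.63 and 5.55, and the Mir7665 change 8.30 and 4.47. Log2 values carry a pseudocount of 1, which makes the change of such peaks smaller than the plain ratio of signals. These peaks were picked for large rises, and the direction of the error in their changes was not tested.

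The largest fall that met the rule was nearest to Zfp800, a zinc finger gene, in its intron 46.8 kb downstream of the start site (chr6:28351001-28351493). Its signal was 21.4, 55.3 and 16.5 in the Treg libraries, against 1003 and 578 in the naive libraries (log2 fold change -4.77 ± 0.44, adjusted p = 1.16e-08), without overlap. Dync1li2, a dynein light intermediate chain gene, had 90.1, 89.4 and 58.2 in the Treg libraries, against 1557 and 1106 in the naive libraries in an intron (log2 fold change -4.06 ± 0.23, adjusted p = 9.35e-12). The Tnks peak, in an intron of the tankyrase gene, fell by 4.24 on the log2 scale, and the Uvrag peak, in an intron of an autophagy gene, fell by 3.72. Peaks nearest to Mgme1, Hlf, Atpsckmt, Skor1, Uso1 and Mir3965 made up the 10, with falls of 3.48 to 4.31 on the log2 scale. Hlf encodes a PAR bZIP factor known in blood stem cells. Its peak lay 73.4 kb upstream and had a signal of 6.76, 40.4 and 21.5 in the Treg libraries, against 431 and 288 in the naive libraries, and its change was -3.53 without Treg replicate 1. Without Treg replicate 2 the Atpsckmt change was -4.47, and without Treg replicate 3 the Mgme1 change was -3.72. At the Uvrag peak the Teff and anergic means, 529.7 and 371, lay between the Treg mean of 110.8 and the naive mean of 1422.

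**Figure D2:**
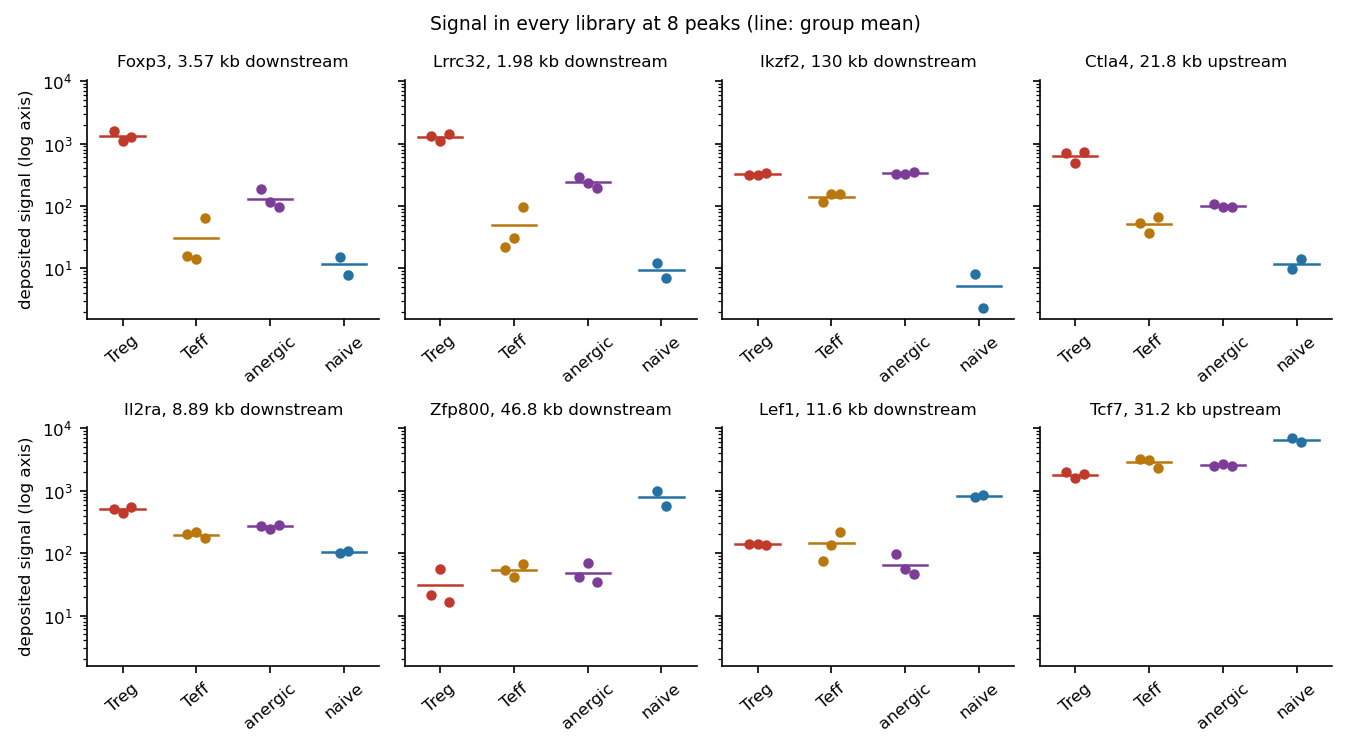
Deposited signal (y, log axis) in every library of the 4 groups (x) at 8 peaks, each point 1 library and each line a group mean. The 3 Treg points lie above both naive points at Foxp3, Lrrc32, Ikzf2, Ctla4 and Il2ra, and below both at Zfp800, Lef1 and Tcf7.

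Lrrc32 was higher at all 11 of its peaks, from 1.41 kb before to 74.8 kb past the start site, with log2 fold changes of 2.21 to 6.94. At the peak 73.2 kb downstream (chr7:98562942-98563362) the signal was 854, 1141 and 893 in the Treg libraries, against 32.5 and 31.7 in the naive libraries (log2 fold change 4.85 ± 0.54, adjusted p = 2.18e-07). The promoter peak of Lrrc32 had 2187, 2279.8 and 2332 in the Treg libraries, against 214 and 303 in the naive libraries (log2 fold change 3.15 ± 0.24, adjusted p = 6.27e-10). Comparisons of Treg with Teff and with anergic cells share the Treg libraries with the comparison to naive cells, so their values stand side by side and are not independent. Against Teff, 14.4% of the peaks tested were higher and 18.2% lower in Treg, and against anergic cells 14.8% were higher and 19.4% lower. All 11 Lrrc32 peaks were higher in Treg than in Teff, and all 11 were higher than in anergic cells. At the peak 73.2 kb downstream the Teff and anergic means were 32.2 and 20.8, close to the naive values.

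Ikzf2 encodes Helios, a zinc finger factor of Treg cells. It was higher than in naive cells at all 17 peaks, with log2 fold changes of 1.18 to 5.87. The largest was in an intron 130 kb downstream (chr1:69555534-69556054), where the signal was 315, 317 and 334 in the Treg libraries, against 8.12 and 2.32 in the naive libraries (log2 fold change 5.87 ± 0.31, adjusted p = 3.10e-12). The smallest was 1.5 kb upstream, where naive cells were open as well, with 1966, 1526 and 2274 in the Treg libraries, against 804 and 874 in the naive libraries (log2 fold change 1.18 ± 0.14, adjusted p = 6.67e-07). Against Teff, 11 of the 17 were higher in Treg, and against anergic cells 1 was higher and 4 were lower. The peak higher than in anergic cells lay 6.18 kb upstream, with a signal of 255, 317 and 265 in the Treg libraries, against 35.7 and 34.1 in the naive libraries and an anergic mean of 88.9.

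Ctla4, the gene of the inhibitory receptor that competes with CD28 for its ligands, was higher at 19 of 21 peaks and lower at none. The largest rise was 21.8 kb upstream (chr1:60886928-60887450), where the signal was 694, 492 and 724 in the Treg libraries, against 9.75 and 13.9 in the naive libraries (log2 fold change 5.63 ± 0.30, adjusted p = 3.45e-12). The Teff and anergic means there were 51.9 and 101, and Treg was higher than both (log2 fold changes 3.61 and 2.62, adjusted p = 3.07e-09 and 3.11e-07). Over the locus, 18 peaks were higher and 1 lower in Treg than in Teff. Against anergic cells only 3 were higher and 2 lower. The broad intronic peak 3.29 kb downstream was the strongest of the locus, with 5124, 5009 and 6854 in the Treg libraries, against 463 and 655 in the naive libraries (log2 fold change 3.34 ± 0.16, adjusted p = 4.29e-13). Its anergic mean was 5507, within the range of the Treg libraries. Neither of the remaining Ctla4 peaks passed, with 0.19 at 48.3 kb upstream (adjusted p = 0.646) and 0.16 at 26 kb upstream (adjusted p = 0.604).

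Il2ra changed in separate stretches. The peaks at 7.59 kb upstream, 7.08 kb upstream and 6.67 kb upstream rose by 1.99, 1.27 and 1.19. At the first of them the signal was 349, 402 and 391 in the Treg libraries, against 95.1 and 95.2 in the naive libraries, and the Teff and anergic means, 44.9 and 36.4, lay below the naive values. At 5.5 kb upstream Treg and naive libraries overlapped (log2 fold change 0.05 ± 0.34, adjusted p = 0.918). The promoter peak rose by 0.85 ± 0.17. Within the gene, the peaks at 8.89 kb downstream, 10.1 kb downstream, 12.4 kb downstream and 12.7 kb downstream rose, the strongest one, at 10.8 kb downstream, had 1533, 1094 and 1446 in the Treg libraries, against 1449 and 1191 in the naive libraries and did not pass (log2 fold change 0.03 ± 0.16, adjusted p = 0.888), and the one at 29.5 kb downstream fell by 1.21 on the log2 scale. The 2 other peaks, at 15 kb downstream and 21.4 kb downstream, did not pass (adjusted p = 0.304 and 0.947).

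**Figure D3:**
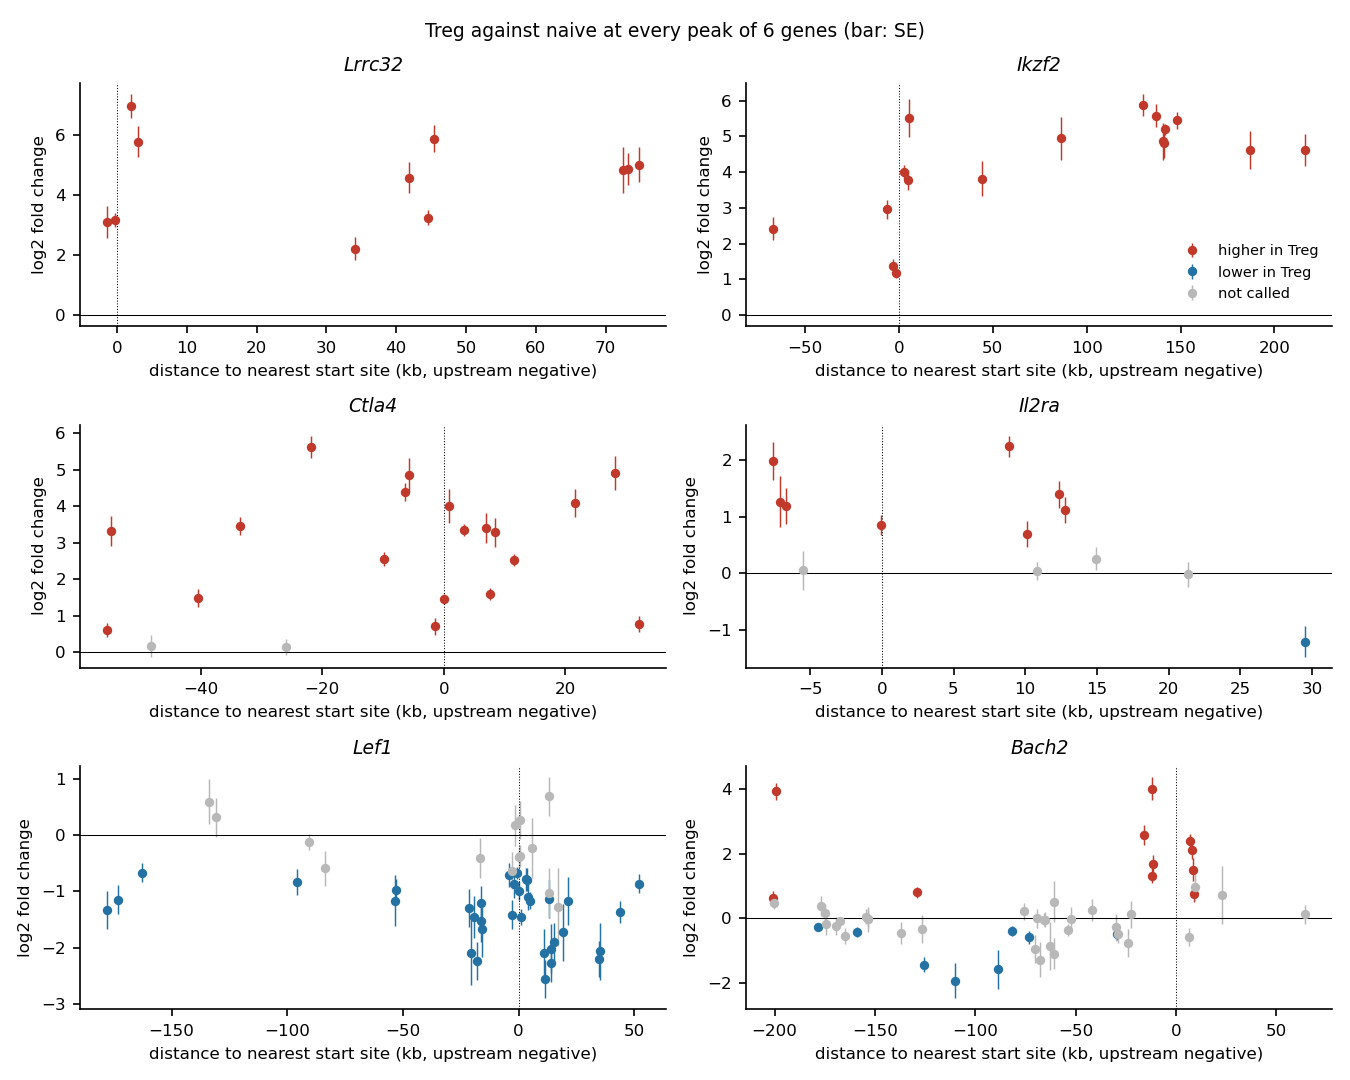
Log2 fold change of Treg against naive (y, bars show the SE) at every tested peak of 6 genes against the distance to the nearest start site (x, kb, upstream negative), coloured by call. All peaks of Lrrc32 and Ikzf2 lie above 0, those of Il2ra run from -1.21 to 2.25, 35 of 49 Lef1 peaks were lower, and Bach2 holds 11 higher and 8 lower peaks.

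Genes of suppressor molecules had 143 peaks, of which 108 were higher and 9 lower, with a median log2 fold change of 2.56. Of its 24 genes with a peak, 16 had only higher calls, 2 only lower calls and 3 both. Itgav and Itgb8 encode the chains of the integrin that activates latent TGF-beta. The Itgav peak 23.5 kb upstream (chr2:83700415-83701349) had 1683, 1264 and 1654 in the Treg libraries, against 32.5 and 41.8 in the naive libraries (log2 fold change 5.33 ± 0.18, adjusted p = 3.20e-15), and all 8 Itgav peaks were higher. The Itgb8 promoter peak had 1109, 981 and 1129 in the Treg libraries, against 56.9 and 65 in the naive libraries (log2 fold change 4.12 ± 0.17, adjusted p = 4.05e-14). Cd83, a surface immunoglobulin-family molecule of activated cells, was higher at 15 of 17 peaks. Its peak 23.7 kb upstream had 505, 581 and 603 in the Treg libraries, against 8.94 and 6.19 in the naive libraries (log2 fold change 6.06 ± 0.22, adjusted p = 1.03e-14). Il10, the gene of the suppressive cytokine, was higher at 12 of 13 peaks, with 471, 419 and 503 in the Treg libraries, against 11.4 and 6.97 in the naive libraries at the peak 16.4 kb upstream (log2 fold change 5.55 ± 0.21, adjusted p = 2.62e-14). The anergic mean at that Il10 peak was 1736. Chosen after its values were seen, Prf1, the gene of the pore-forming protein perforin, was lower at 5 of 6 peaks and higher at none, with log2 fold changes of -2.95 to -0.94. For this list 28 peaks were higher and 36 lower than in anergic cells, and 89 higher and 14 lower than in Teff.

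Costimulatory and TNF receptor genes, with their TRAF and NF-kB partners, had 200 peaks, of which 130 were higher and 17 lower, with a median of 0.83. Tnfrsf4 encodes the costimulatory receptor OX40. Its peak 5.18 kb upstream, in an intron of Sdf4 (chr4:156008086-156008934), had 635, 700.3 and 542 in the Treg libraries, against 26 and 32.5 in the naive libraries (log2 fold change 4.37 ± 0.22, adjusted p = 1.37e-12). Tnfrsf9, the 4-1BB gene, was higher at all 9 of its peaks, with 3.63 ± 0.23 at 2.62 kb upstream (adjusted p = 5.12e-11). Traf1, an adaptor of these receptors, rose by 2.18 ± 0.16 in an intron (adjusted p = 2.80e-10), and 8 of its 15 peaks were higher and 1 lower. Tnfaip3 encodes A20, which limits NF-kB. It was higher at 13 of 17 peaks, with 967, 881 and 1105 in the Treg libraries, against 154 and 114 in the naive libraries in an intron (log2 fold change 2.88 ± 0.17, adjusted p = 1.02e-11). Icos, the inducible costimulator, was higher at 18 of 21 peaks and lower at none. The 17 lower calls of this list became 7 without naive replicate 1 and 8 with scaling to reads in peaks.

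The IL-2 receptor and STAT5 pathway had 126 peaks, of which 38 were higher and 26 lower (median 0.04), so its share of lower calls was near that of all peaks. Il2rb, the beta chain of the IL-2 receptor, was higher at all 5 of its peaks. Its most certain peak, in an intron 0.571 kb downstream of the start site, had 6169, 6135 and 6917 in the Treg libraries, against 1649 and 1607 in the naive libraries (log2 fold change 1.97 ± 0.11, adjusted p = 3.46e-12). The Teff mean there was 7573 and the anergic mean 7244. Cish, a STAT5 target that limits cytokine signals, was higher at all 8 of its peaks. The Cish peak 6.61 kb downstream (chr9:107303126-107303402) had 324, 345 and 292 in the Treg libraries, against 6.5 and 3.1 in the naive libraries (log2 fold change 5.85 ± 0.38, adjusted p = 7.16e-11). The Teff mean was 62.5 and the anergic mean 139. Socs2, a further feedback inhibitor of cytokine signals, had 1239.9, 1109 and 1270.0 in the Treg libraries, against 176 and 169 in the naive libraries at its promoter (log2 fold change 2.80 ± 0.16, adjusted p = 6.35e-12). Chosen after its values were seen, Il7r, the survival receptor of resting T cells, was lower at 5 of 12 peaks and higher at none. Jak1, also chosen after its values were seen, encodes a kinase shared by these receptors and was lower at 10 and higher at 2 of 23 peaks. Without naive replicate 1 the lower calls of the list fell to 16.

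Treg lineage factors as a list had 310 peaks, of which 88 were higher and 60 lower (37 without naive replicate 1), with a median of 0.00. As shares, higher calls made up 28.4% and lower calls 19.4%, near the 22.3% and 23% over all tested peaks. Of the 22 genes of the list, 8 had only higher calls, 4 only lower calls and 9 both. Of the other genes, Foxp1 (a forkhead factor of resting T cells) was higher at 15 and lower at 7 of 56 peaks. Its share of higher peaks was near, and its share of lower peaks below, that over all tested peaks. The Foxp1 peak with the smallest adjusted p, in its intron, rose by 3.18 ± 0.20 (adjusted p = 4.23e-11). Satb1, a chromatin organizer active early in Treg development, was lower at 13 of 21 peaks and higher at none. Bach2, a repressor that keeps T cells from effector fates, was higher at 11 and lower at 8 of 51 peaks, neither share above that over all tested peaks. The higher Bach2 peaks included all 4 between 11.2 and 15.8 kb upstream. The largest of these (chr4:32405167-32405397) had 268, 185 and 195 in the Treg libraries, against 6.5 and 22.5 in the naive libraries (log2 fold change 4.01 ± 0.36, adjusted p = 7.34e-09). Its change was 3.19 without naive replicate 1 and 4.84 without naive replicate 2.

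Regulators of effector and tissue Treg cells had 164 peaks, of which 84 were higher and 15 lower (5 without naive replicate 1), with a median of 0.55. Rora, a nuclear receptor gene, had 601, 481 and 531 in the Treg libraries, against 30.1 and 27.9 in the naive libraries at an intronic peak 14.9 kb downstream (log2 fold change 4.16 ± 0.18, adjusted p = 1.15e-13). The Teff mean there, 990.5, was above the Treg values. Irf4, a factor needed for effector Treg cells, was higher at 4 and lower at 6 of 18 peaks, with 3.67 ± 0.23 inside Exoc2, 82.3 kb downstream. Its share of higher peaks was near that over all tested peaks. Nfil3, a bZIP factor gene, rose by 5.02 ± 0.32 in an intron (adjusted p = 3.59e-11). That change was 4.15 without naive replicate 1 and 5.89 without naive replicate 2. Ahr, the aryl hydrocarbon receptor gene, was higher at all 4 of its peaks, with 155, 168 and 215 in the Treg libraries, against 4.06 and 2.32 in the naive libraries at 28.1 kb upstream (log2 fold change 5.45 ± 0.38, adjusted p = 1.59e-10).

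Cytokine and TNF family ligand genes had 116 peaks, of which 64 were higher (42 with quantile normalization) and 19 lower, with a median of 0.94. Tnfsf8, which encodes CD30 ligand, was higher at 20 of 21 peaks. The peak 74.5 kb upstream (chr4:63935136-63936353) had 1005, 947 and 928 in the Treg libraries, against 18.7 and 12.4 in the naive libraries (log2 fold change 5.89 ± 0.17, adjusted p = 6.17e-16), with no overlap and an anergic mean of 1956. Ifng, the interferon-gamma gene, was higher at 8 and lower at 1 of 11 peaks, with 2.74 ± 0.21 at 20.6 kb downstream (adjusted p = 7.00e-10). Il13, a type 2 cytokine gene, was the gene nearest to 7 peaks, of which 6 were higher. The largest Il13 change was in an intron of Rad50 22.3 kb upstream (chr11:53656705-53657202), inside the Th2 locus control region that RefSeq annotates as site RHS6. Its signal was 141, 149 and 161 in the Treg libraries, against 11.4 and 2.32 in the naive libraries (log2 fold change 4.56 ± 0.37, adjusted p = 2.20e-09), and the Teff mean, 414, was above the Treg values. Without naive replicate 1 this change was 5.51, and without naive replicate 2 it was 3.61. Against anergic cells, 3 peaks of the cytokine list were higher and 71 lower in Treg, and against Teff 25 were higher and 53 lower.

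Migration and residency receptors had 173 peaks, of which 73 were higher and 32 lower (18 without naive replicate 1), with a median of 0.25. Both peaks of Ccr6, a receptor for CCL20, were higher, by 4.72 and 4.93. Its peak 25.7 kb upstream had 252, 213 and 273 in the Treg libraries, against 10.6 and 4.65 in the naive libraries (adjusted p = 2.32e-09). Cxcr5, the receptor that leads cells into B cell follicles, had 1600.3, 1784 and 1985 in the Treg libraries, against 379 and 404 in the naive libraries at its promoter (log2 fold change 2.19 ± 0.13, adjusted p = 1.52e-11). S1pr4, a receptor for sphingosine 1-phosphate, rose by 1.71 ± 0.15 at a peak in an intron of Gna15 (adjusted p = 3.75e-09), where the Teff mean of 3608 exceeded all Treg values. Lower calls, named here after their values were seen, included those of S1pr1 and Ccr7, which belong to the list of naive and quiescence genes. S1pr1, the receptor for exit from lymph nodes, was lower at 11 and higher at 2 of 23 peaks. Ccr7, the receptor for entry into lymph nodes, was lower at 4 and higher at 1 of 18 peaks. Its share of lower peaks was near the 23% over all tested peaks. In the list of migration and residency receptors Cxcr6, a tissue-homing receptor, was lower at all 3 of its peaks, with log2 fold changes of -1.82 to -1.05.

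Genes of the naive and resting state had 484 peaks, of which 140 were lower and 75 higher, with a median of -0.19. Without naive replicate 1, 89 were lower. As shares, 28.9% of the list peaks were lower and 15.5% higher, against 23% and 22.3% over all tested peaks. Of the 30 genes with a peak, 10 had only lower calls, 3 only higher calls and 15 both. Lef1, a factor that marks resting T cells and binds TCF-LEF sites, was lower at 35 of 49 peaks and higher at none. Its deepest fall was intronic, 11.6 kb downstream (chr3:131167528-131168232), where the signal was 139.6, 143 and 134 in the Treg libraries, against 786 and 859 in the naive libraries (log2 fold change -2.56 ± 0.34, adjusted p = 2.16e-06). The most certain Lef1 fall was 1.16 kb downstream, with 992, 756 and 876 in the Treg libraries, against 2554 and 2232 in the naive libraries (log2 fold change -1.46 ± 0.14, adjusted p = 2.50e-08), and neither peak had overlapping groups. Against Teff, 12 Lef1 peaks were higher in Treg and 3 lower. Against anergic cells 31 were higher and 1 lower.

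Tcf7 encodes TCF1, a partner of LEF1. It was lower at 13 and higher at 2 of 27 peaks. A peak 31.2 kb upstream (chr11:52313515-52314921) had 2035, 1582 and 1854 in the Treg libraries, against 6997 and 6002 in the naive libraries (log2 fold change -1.84 ± 0.13, adjusted p = 3.94e-10). At the most certain of the Satb1 peaks, in an intron 11.6 kb downstream, the signal was 121, 85.1 and 88.6 in the Treg libraries, against 544 and 362 in the naive libraries (log2 fold change -2.18 ± 0.34, adjusted p = 2.14e-05). Not all genes of this list had mostly lower calls. Ets1, an ETS factor of T cells, was higher at 16 and lower at 2 of 49 peaks, with 948, 856 and 1041 in the Treg libraries, against 109.7 and 84.4 in the naive libraries at an intronic peak 16.2 kb downstream (log2 fold change 3.28 ± 0.16, adjusted p = 5.71e-13). The anergic mean at that Ets1 peak was 2103.

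T cell receptor signalling genes had 337 peaks, of which 93 were higher and 75 lower (43 without naive replicate 1), with a median of 0.01. These shares, 27.6% and 22.3%, were near the 22.3% and 23% over all tested peaks. Fyn, a kinase of the receptor, was higher at 16 and lower at 4 of 24 peaks, with 2.57 ± 0.16 in its intron (adjusted p = 3.57e-11). Ptpn22, a phosphatase that limits the receptor, was higher at 4 and lower at 3 of 11 peaks. One of them, in an intron of Bcl2l15, rose by 4.52 ± 0.25. Sla, an adaptor that lowers receptor levels, was higher at 17 of 24 peaks and lower at none, with 2.88 ± 0.22 in an intron (adjusted p = 6.74e-10). Lcp2, the SLP-76 adaptor gene, rose by 4.33 ± 0.32 at 10.4 kb upstream, a change of 5.22 without naive replicate 1 and 3.45 without naive replicate 2.

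Genes of anergy and negative feedback had 224 peaks, of which 92 were higher and 25 lower (16 without naive replicate 1), with a median of 0.35. The shares of this list were 41.1% higher and 11.2% lower, against 22.3% and 23% over all tested peaks. Dusp4, a phosphatase that turns off MAP kinases, was higher at 10 of 11 peaks. The Dusp4 peak 51.9 kb upstream had 735, 639 and 596 in the Treg libraries, against 37.4 and 41 in the naive libraries (log2 fold change 4.03 ± 0.23, adjusted p = 8.96e-12), and the anergic mean was 433. Tox, an HMG-box factor of chronically stimulated T cells, was higher at 15 and lower at 1 of 22 peaks, with 5.30 ± 0.37 in its intron. Its relative Tox2 rose by 3.95 ± 0.29 at 36.5 kb upstream, where the Treg values of 106.4 to 145.3 lay below the anergic mean of 334. Ndrg1, a factor tied to T cell anergy, rose by 2.68 ± 0.20 at 28.9 kb upstream (adjusted p = 4.01e-10).

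AP-1, BATF and IRF factor genes had 116 peaks, of which 37 were higher and 18 lower (10 without naive replicate 1), with a median of 0.22. The shares of this list were 31.9% higher and 15.5% lower, against 22.3% and 23% over all tested peaks. Batf, which pairs with JUN proteins and IRF4, was higher at 5 and lower at 1 of 10 peaks. Its intronic peak 17 kb downstream (chr12:85703525-85703940) had 222, 351 and 365 in the Treg libraries, against 57.7 and 49.6 in the naive libraries (log2 fold change 2.49 ± 0.24, adjusted p = 2.98e-08), and the Teff and anergic means were 298 and 403. The Batf promoter peak did not pass (-0.21, adjusted p = 0.298). Fosb, an AP-1 subunit gene, was higher at all 7 of its peaks, with 492, 664 and 824 in the Treg libraries, against 51.2 and 46.5 in the naive libraries at 15.9 kb upstream (log2 fold change 3.70 ± 0.22, adjusted p = 1.96e-11). Batf3, a relative of Batf, rose by 3.16 ± 0.33 in an intron (adjusted p = 8.21e-08).

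BCL2 family genes, which set the threshold of cell death, had 68 peaks, of which 22 were higher and 11 lower, with a median of 0.07. These shares, 32.4% and 16.2%, stood beside 22.3% and 23% over all tested peaks. The lower count ran from 3 to 13 over the alternatives without the fold limit. Bcl2l11, the gene of the death-promoting protein BIM, was higher at 3 and lower at 2 of 14 peaks. Neither share was above that over all tested peaks. The most certain rise was 33.8 kb upstream in an intron of Acoxl (chr2:128092095-128092476), with 305, 430.0 and 396 in the Treg libraries, against 80.4 and 51.9 in the naive libraries (log2 fold change 2.51 ± 0.25, adjusted p = 5.07e-08). The Teff mean there was 78.6 and the anergic mean 382. One of the start-site peaks of Bcl2l11 fell by 0.44 on the log2 scale and the other did not pass (adjusted p = 0.112). The intronic peak 25.8 kb downstream had 1135, 1198 and 1065 in the Treg libraries, against 1393 and 1486 in the naive libraries (log2 fold change -0.35 ± 0.19, adjusted p = 0.136), and its anergic mean was 331. Pmaip1, the gene of the death-promoting protein NOXA, was higher at all 8 of its peaks, by 1.69 to 3.72. Bcl2l1, the BCL-XL gene, rose by 2.14 ± 0.18 and Bbc3, the PUMA gene, by 1.87 ± 0.26, both in introns.

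Genes of T cell identity had 166 peaks, of which 46 were higher and 36 lower (23 without naive replicate 1), with a median of 0.08. These shares, 27.7% and 21.7%, were near the 22.3% and 23% over all tested peaks. All genes of that list but Trac had a peak. At single peaks, Cd5, which dampens receptor signals, rose by 1.10 ± 0.13 and Cd2, an adhesion molecule, by 1.69 ± 0.22. A peak of Bcl11b, a T lineage factor, rose by 3.23 ± 0.28. Higher calls were at 4 of 6 Cd5 peaks and 13 of 20 Cd2 peaks, and lower calls at 0 and 1. Bcl11b was higher at 6 and lower at 5 of 39 peaks, neither share above that over all tested peaks. Housekeeping genes had 59 peaks, of which 4 were higher and 10 lower (7 and 4 with scaling to reads in peaks). The first 2 counts are shares of 6.78% and 16.9%, both below those over all tested peaks. Peaks near Actb, Ppia, Tbp and Ywhaz fell by 0.62, 0.66, 0.52 and 1.15 on the log2 scale. Of 12 Actb peaks 1 was higher and 1 lower, and Pgk1, chosen after its values were seen, was higher at 2 and lower at 1 of 3 peaks. The lower Actb peak did not pass without naive replicate 1 (adjusted p = 0.0629).

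Peaks also lay near markers of other cell types. Of 15 B cell markers 6 had a peak, and Ms4a1, Cd79a and Pax5, which mark the lineage, had none. Over these 17 peaks 8 were higher and 2 lower, and the summed signal was 5273 to 6261 in Treg libraries, against 3712 to 3937 in naive libraries. Cd74, the MHC class II chaperone gene, had 1083, 1060.0 and 1336 in the Treg libraries, against 291 and 277 in the naive libraries at its promoter (log2 fold change 2.02 ± 0.16, adjusted p = 9.75e-10). Cd22, H2-Aa and H2-Ab1 rose by 1.55, 1.26 and 0.62, and Cd22 did not pass with quantile normalization (0.32, adjusted p = 0.423). Chosen after its values were seen, Cd79b, a B cell receptor subunit gene, was lower at 2 of 4 peaks and higher at none, with a median of -0.45. Ebf1, a further B lineage marker of this list, had 1 peak, also named after its value was seen. That peak was higher than in naive cells by 1.02 on the log2 scale, and higher than in Teff and in anergic cells. Of 18 myeloid and dendritic markers 10 had a peak, and Csf1r, Lyz2 and Cd14 had none. Over 31 peaks 11 were higher and 3 lower, with summed signals of 11946 to 12437 in Treg and 11078 to 11396 in naive libraries. The Cebpa promoter peak rose by 2.34 ± 0.15, a Zbtb46 peak by 1.68 ± 0.16, and the peak in Itgam fell by 2.39 on the log2 scale.

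For CD8, NK and innate-like markers 9 of 15 genes had a peak, and Cd8a and Ncr1 had none. Over 56 peaks 19 were higher (9 with quantile normalization) and 11 lower (5 with scaling to reads in peaks), with summed signals of 30942 to 36450 in Treg, against 37785 to 38296 in naive libraries. Runx3, a factor of cytotoxic T cells, was higher at 4 and lower at 7 of 21 peaks. Its intronic peak with the smallest adjusted p fell by 2.37 on the log2 scale. Nkg7 and Ccl5, cytotoxic and chemokine genes, rose by 3.29 and 2.16 from low levels, and their Teff means were 467 and 349.8, above all Treg values. The Nkg7 change was 4.32 without naive replicate 1 and 2.25 without naive replicate 2. The Zbtb16 peak had 13.5, 25.5 and 20.3 in the Treg libraries, against 0.812 and 0.774 in the naive libraries, which is 1 read in each naive library, and did not pass with quantile normalization (0.60, adjusted p = 0.277). Of 12 erythroid and platelet markers 5 had a peak, and Gata1 and the globin genes had none. Over their 9 peaks 1 was higher, at Alas2, and 3 were lower, at Klf1, Itga2b and Tfrc. The calls at Itga2b and Tfrc did not hold under most alternatives. The part of other cell types in the results was not tested.

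**Figure D4:**
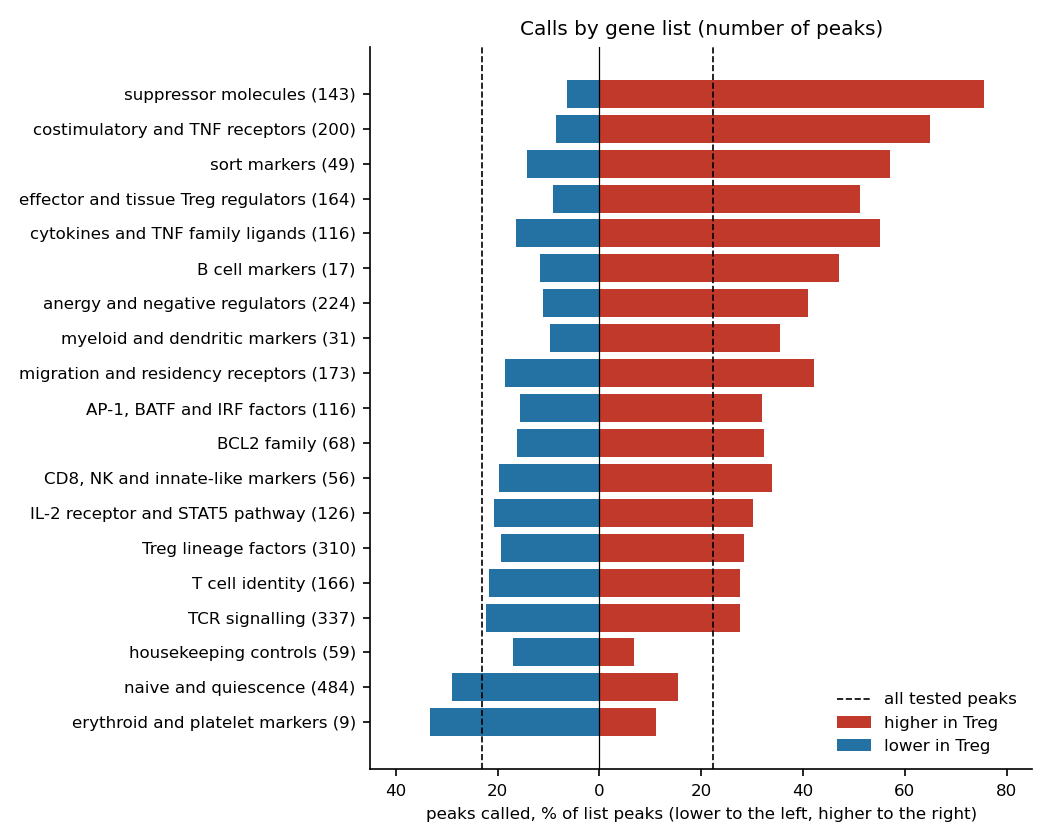
Share of the peaks of each gene list that were higher (right) or lower (left) in Treg than in naive cells (x, %), with the number of peaks in brackets and dashed lines at the shares over all tested peaks, 22.3% and 23%. Suppressor molecules and costimulatory receptors reach furthest to the right, with 108 of 143 and 130 of 200 peaks higher.

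By number of peaks called, the genes with most higher peaks were Tnfsf8 (20 of 21), Trib1 (20 of 23), Ctla4 (19 of 21), Inpp4b (19 of 32), Icos (18 of 21) and Atxn1 (18 of 26). Trib1, a pseudokinase gene known to act in Treg cells, rose by 1.99 ± 0.16 at a peak 128 kb upstream in an intron of Nsmce2. Inpp4b, a phosphoinositide phosphatase gene, had 129.5, 149 and 177 in the Treg libraries, against 2.44 and 1.55 in the naive libraries at an intronic peak (log2 fold change 5.68 ± 0.31, adjusted p = 5.21e-12). At the Atxn1 peak 127 kb downstream the signal was 233, 202 and 187 in the Treg libraries, against 15.4 and 16.3 in the naive libraries, and the anergic mean was 1039. The Icos peak 76.7 kb downstream rose by 4.48 ± 0.48, and by 5.72 without naive replicate 1 and 3.23 without naive replicate 2. Genes with most lower peaks were Lef1 (35 of 49), Dad1 (15 of 54), Satb1 (13 of 21), Tcf7 (13 of 27), Tgfbr3 (12 of 17) and the predicted gene Gm4668 (12 of 18). Dad1 lies beside the T cell receptor alpha locus, and its share of lower peaks was near the 23% over all tested peaks. Tgfbr3, the gene of the TGF-beta co-receptor betaglycan, had 28.2, 66 and 38 in the Treg libraries, against 557 and 345 in the naive libraries at an intronic peak (log2 fold change -3.37 ± 0.38, adjusted p = 2.18e-07). Of 2026 genes with at least 5 peaks, 56 were higher at all of them and 12 lower at all of them.

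Calls of 1 direction stood next to each other along the chromosomes. There were 49 runs of at least 10 neighbouring peaks that were all higher and 7 runs that were all lower. The longest higher runs held 20 peaks each. One lay over Ikzf2, Spag16 and Bard1 (chr1:69469213-71101902, median 4.32) and one over Eea1 and its neighbours (chr10:95779682-96094468, median 2.57). A run of 18 covered Mir21a, the gene of a microRNA of activated T cells, and Vmp1, which hosts it (chr11:86580204-86653740, median 2.59). A run of 17 joined Ctla4 and Icos (chr1:60886928-60961319, median 3.29). The longest lower run held 17 peaks over Slc22a21, Slc22a4, Pdlim4 and P4ha2 (chr11:54002223-54214688, median -1.97), next to the type 2 cytokine genes. These regions were picked for their length, and a run counts peaks that share a region. The part in these counts of a peak set drawn from a series with only 2 naive libraries was not tested.

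Distal peaks, more than 1000 bases from the nearest start site, made up 83.4% of the higher peaks on chromosomes (95% Wilson interval 82.6% to 84.2%), 59.3% of the lower (58.3% to 60.3%) and 63.2% of those not called. At promoters 1410 of 12760 peaks were higher and 3606 lower, with a median of -0.14. At distal sites 7109 of 25666 were higher and 5259 lower, with a median of 0.05. Most lower promoter calls were small, and by at least 2-fold 635 promoter peaks were higher and 179 lower. The contrast depended on the scaling. After quantile normalization the distal share was 72.5% of higher and 74.3% of lower peaks, and among calls of at least 2-fold it was 89.2% and 94.0%. Strongly open peaks, with a mean log2 signal of at least 10, were promoters in 81.9% of cases and had a median of -0.21, which was 0.00 after quantile normalization. The weakest 667 peaks, with a mean log2 signal under 5, had a median of 1.99, and 53.1% of them were higher, but their median was -0.41 after quantile normalization. For the 3637 peaks with a mean from 5 to 6 the median was 0.43, and -0.37 after quantile normalization.

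Single promoters changed strongly, and these were chosen after their values were seen. The largest rise of a promoter peak that met the terms of the naming rule was at Hopx, a homeodomain factor gene known in induced Treg cells, with a signal of 501.1, 491.7 and 612.8 in the Treg libraries, against 17.9 and 6.19 in the naive libraries (5.52 ± 0.44, adjusted p = 1.51e-09). The promoter of Rgs16, a regulator of chemokine receptor signals, had 1326, 1237 and 1234 in the Treg libraries, against 79.6 and 146.3 in the naive libraries (3.54 ± 0.19, adjusted p = 3.99e-12). Among promoters that fell, Pou2af1, a transcriptional coactivator gene, had 382.9, 364.0 and 300.1 in the Treg libraries, against 1411 and 1226 in the naive libraries (-1.92 ± 0.16, adjusted p = 1.75e-09). Slfn1, a gene linked to T cell quiescence, had 327.7, 317.2 and 311.5 in the Treg libraries, against 1097 and 1075 in the naive libraries (-1.77 ± 0.16, adjusted p = 1.49e-08).

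Motif letters were counted in the central 200 bases of distal peaks on both strands. The AP-1 letters TGANTCA were in 22.4% of higher distal peaks (21.4% to 23.4%), 6.62% of lower ones, 8.06% of those not called and 11.7% of all distal peaks. NFAT letters (TGGAAA) were in 24.9% of higher, 13.8% of lower and 17.8% of all distal peaks. NF-kB letters were rare, at 2.15% of higher, 0.30% of lower and 0.93% of all. TCF-LEF letters (CTTTGAT) were most frequent in lower peaks, with 4.23% of higher, 8.08% of lower, 3.71% of those not called and 4.75% of all. So were RUNX letters (TGTGGT), with 25.0%, 35.4%, 23.2% and 26.2%. For both motifs the share in higher peaks was not below that in peaks not called. CTCF letters (CCNC directly followed by NAGNGG), which mark boundary elements, were in 4.36% of higher and 4.79% of lower peaks, against 11.3% of those not called. STAT (TTCNNGGAA) and forkhead (TGTTTAC) letters were in 2.48% and 3.46% of higher, 2.36% and 3.92% of lower, and 2.43% and 3.40% of all distal peaks. Seen by motif, 52.9% of the 3012 distal peaks with AP-1 letters were higher and 11.6% lower, and of the 1220 with TCF-LEF letters 24.7% were higher and 34.8% lower. The AP-1 share ran from 20.4% to 25.7% in higher and 6.14% to 6.84% in lower peaks over the alternatives with this window, quantile normalization included. Median GC content was 47.7% in higher, 49.7% in lower and 50% in distal peaks not called, and peak width had medians of 331, 369 and 240 bases. Composition and width bear on how often letters occur, and their part was not tested.

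**Figure D5:**
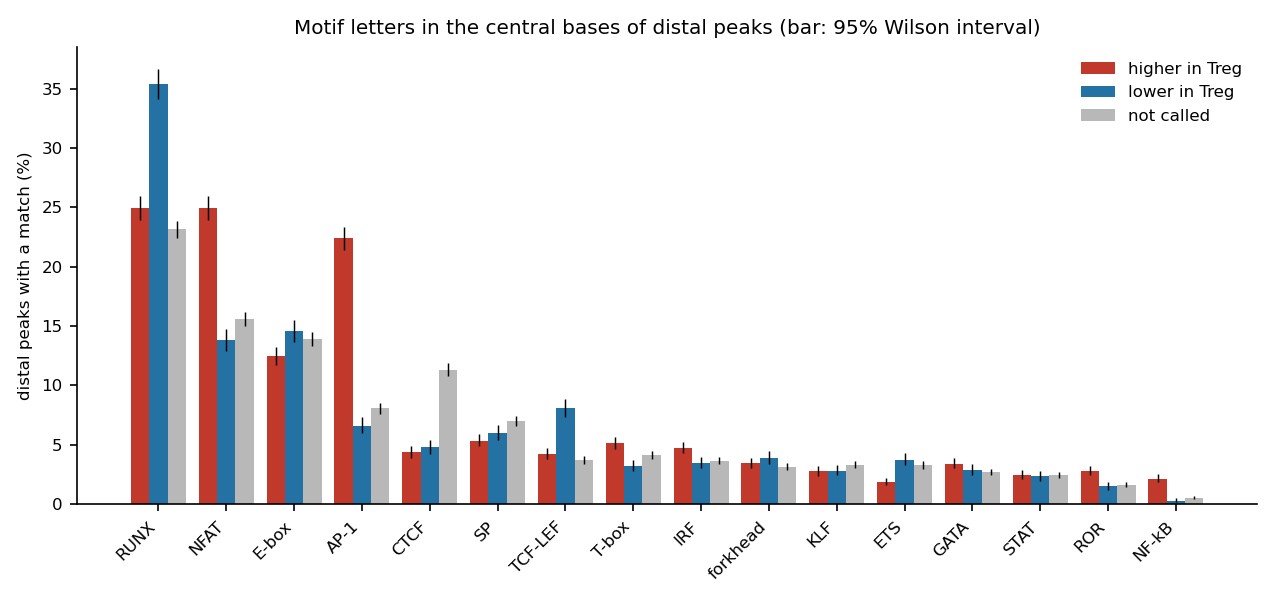
Share of distal peaks (y, %) whose central 200 bases hold the letters of each of 16 motifs (x), for peaks higher in Treg, lower in Treg and not called, with 95% Wilson intervals that cover counting error only. AP-1 stands at 22.4% in higher against 6.62% in lower peaks, and RUNX at 25.0% against 35.4%.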

How the data were processed

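ATAC-seq of sorted mouse CD4 T cells was deposited as 1 table of signal per consensus peak and library. Per the series' design text, the authors trimmed reads with Trimmomatic 0.38.1, aligned them to mm10 with Bowtie2 2.3.3.1 and sorted them with SAMtools 1.13. Genrich 0.5 called peaks per sample, removed PCR duplicates, shifted ends for the transposase and left out mitochondrial and blacklisted reads, and DiffBind 2.10.0 made the consensus, per the same text. The deposited signal values were whole reads times a factor per library, the method of which is not given in the sources used here. Dividing by each column's smallest value gave whole numbers within 0.01 for 100% of values, and 1 read was worth 0.77 to 2.13 units in the 5 libraries.

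limma 3.58.1 (limma-trend, R 4.3.3) was run on log2(signal + 1) fitting the 11 libraries together by group alone. Fold changes are Treg over naive on this scale with their SE. Adjusted p-values are Benjamini-Hochberg values over 38493 peaks, with a threshold of 0.05. The low-count filter was filterByExpr of edgeR 4.0.16. Its quasi-likelihood test and DESeq2 1.42.0 were used on recovered reads as alternatives. edgeR also made 91.8% of the calls. Peaks went to the nearest RefSeq start site (GRCm38.p6, 45756 transcripts) from the peak centre, and a peak's gene is this label only.

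In simulated reads for Treg against naive over 38493 peaks, a true 1.5-fold change was found at 17.9% of 67 peaks, a 2-fold change at 46.2% of 65 and a 4-fold change at 94.1% of 68, beside 11 false calls. Few peaks were changed there, so these are not recovery rates of the real data.

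Named peaks followed a rule. It takes the sort markers with Batf and Bcl2l11 by smallest adjusted p. It adds the 10 highest and 10 lowest changes that passed, had a mean log2 signal of at least 6, no overlap between groups and a gene that is not predicted, 1 peak a gene. Then come the 6 genes with most higher and most lower calls and up to 4 genes a list by smallest adjusted p within 100 kb. The 19 lists are sort markers, Treg lineage factors, the IL-2 receptor and STAT5 pathway, suppressor molecules, costimulatory and TNF receptors, effector and tissue Treg regulators, naive and quiescence genes, migration receptors, cytokines and TNF ligands, TCR signalling, anergy genes, AP-1, BATF and IRF factors, the BCL2 family, T cell identity, markers of 4 other cell types, and housekeeping genes. The comparison, lists and motifs were chosen with earlier results of these data known. Lists share genes, and peaks of 1 gene are not independent.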

Additional observations from a re-analysis of the deposited data

How the results depend on the processing

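No named peak changed sign under any alternative run, and over the 99 named peaks and their alternatives 1458 calls held and 24 were lost. These peaks were chosen by small adjusted p or large change in this same comparison. Their stability therefore follows largely from that choice and does not carry over to all called peaks. The lost calls were at Itga2b, Tfrc, Actb, Cd22 and Zbtb16. Quantile normalization moved 39 of the 99 by over 1.5-fold, all of them rises that became smaller, by up to 2.89 on the log2 scale. With scaling to reads in peaks 5721 peaks were lower, and with a limit of at least 2-fold 2968. Leaving out 1 library gave 6748 to 8026 higher and 5242 to 8262 lower peaks, the fewest without naive replicate 1. The distal share of higher peaks was 81.3% with edgeR, 81.9% with DESeq2, 77.4% with scaling to reads in peaks, 72.5% with quantile normalization, 81.2% with a mean log2 of at least 6, 82.3% with scaling to promoter peaks, 89.2% at 2-fold, 74.0% with promoters taken to 2500 bases and 83.5% to 86.6% without 1 library. For lower peaks these were 62.2%, 60.9%, 66.1%, 74.3%, 56.0%, 59.2%, 94.0%, 54.8% and 56.1% to 64.8%, and 62.4% with 5 libraries only. Scaling to promoter peaks, and the fold limit under other fits, were added after seeing the data.

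Deviations from the group mean correlated weakly between naive and Treg libraries of the same replicate number (r of 0.09 for number 1 and 0.04 for number 2). With 2 naive libraries these deviations mirror each other, so the values cannot show whether libraries were paired. With the replicate block 8489 peaks were higher, 8673 lower, and 58.2% of lower peaks were distal.

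With 2 naive libraries, peaks near 1 read carry the widest errors. The low signal of naive libraries at weak peaks lies along the same axis as the groups, and signal outside peaks was not measured here. Background and cell type therefore cannot be told apart at weak peaks. No peak was listed at 0 in the deposited table, and how empty peaks were treated is not given in the sources used here.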

Other observations

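Chromosome X stood at the low end of the higher calls, with 13.9% of 779 peaks higher and 28.0% lower, against 17.9% to 29.5% higher on the autosomes. Its median log2 fold change was -0.14.

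Peaks on unplaced contigs, which carry no gene label here, were higher in Treg at 49 and lower at 2 of 67, with a median of 1.89. They held 0.69%, 1.39% and 0.79% of the signal in the Treg libraries, against 0.24% and 0.30% in the naive libraries. The Teff libraries held 0.32%, 0.42% and 1.44%, and the anergic libraries 1.05%, 0.25% and 0.34%, so the level varied within groups.

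By distance from the start site, higher calls made up 26.4% of peaks 1 to 5 kb away, 24.7% of those 5 to 20 kb away and 35.9% of those beyond 100 kb. Lower calls made up 15.6%, 20.8% and 22.9% of the same peaks.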
